A study of Homo sapiens with 4 samples.

Results

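The proteasome genes described here were the 49 protein-coding genes, of 58735 genes in the expression table, whose symbols begin with PSMA to PSMG followed by a number. They encode the subunits of the proteasome, its activators, its inhibitor and most of its assembly factors, and 1 of them, PSMC3IP, matched by name only. RNA-seq was performed on 4 libraries, an adherent and a spheroid culture of HCT116 cells and the same of LOVO cells, and every value below comes from 1 library and carries no replicate error. Where 4 values follow each other, they stand in the order HCT116 adherent, HCT116 spheroid, LOVO adherent, LOVO spheroid. Both lines derive from human colorectal cancers, and all 4 libraries carry the genotype label WT. Adherent cells grew in serum-containing medium with no treatment. The spheroids grew in a serum-free stem cell medium with growth factors in low-attachment dishes. Their label gives a treatment of 1 mg/ml without naming the agent, while the methods of the study name oxaliplatin, a platinum drug that damages DNA, at a dose in μg/ml. Growth form, medium and drug changed together, so their parts in any difference cannot be told apart. No library was without the drug in spheroids or with it in adherent cells. The study compared spheroids, taken as enriched for stem-like and drug-tolerant cells, with adherent cells of the same line.

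The proteasome degrades proteins that carry ubiquitin chains. Its core particle is a barrel of alpha and beta rings, in which the beta subunits PSMB5, PSMB6 and PSMB7 cut the protein chain. The regulatory particle sits on the barrel: its base holds the ring of ATPases (PSMC genes) that unfold the substrate, and its lid (most PSMD genes) removes the ubiquitin. In immune cells, and in other cells after interferon, PSMB8, PSMB9 and PSMB10 take the places of PSMB5, PSMB6 and PSMB7 and form the immunoproteasome, which favours peptides that fit MHC class I molecules. The activator subunits PSME1 and PSME2 are likewise induced by interferon gamma. The subunits are built in fixed ratios, and the transcription factor NFE2L1 is known to raise the genes of the constitutive subunits together when the proteasome is blocked.

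The reads counted on genes numbered from 15483569 in HCT116 spheroids to 20429147 in adherent HCT116 cells. Mitochondrial genes took 6.77%, 11.1%, 3.65% and 3.97% of the reads. The labels were checked against 12 markers of colorectal epithelium. Above 3 reads, 10 and 11 of the markers were found in the adherent and spheroid HCT116 libraries, against 6 in each library labelled LOVO. EPCAM, a surface protein of epithelial cells, stood at 85.6 and 79.3 FPKM (fragments per kilobase of gene, scaled to the size of the library) in HCT116, but at 0.930 and 1.499 FPKM in the libraries labelled LOVO. CDX2, a transcription factor that defines intestinal epithelium, had 0 reads in both libraries labelled LOVO, and CDH1, which encodes E-cadherin, stood at 0.117 FPKM or less in them. The summed FPKM of the 12 markers was 1754 and 1288 in HCT116 and 326.8 and 187.1 in LOVO. DCN, a proteoglycan gene of fibroblasts, stood at 10.4 and 9.97 FPKM in the libraries labelled LOVO and had 0 reads in HCT116. COL1A1, a collagen gene, did not follow it, with 15.5 FPKM in HCT116 spheroids and 6.10 FPKM in LOVO spheroids, and COL1A2 had 0 or 1 read in every library. The 5 markers of fibroblasts and endothelium, PECAM1 included, summed to 5.76 and 16.2 FPKM in HCT116 and 20.3 and 22.5 FPKM in LOVO. The keratin genes KRT8, at 188.8 and 81.6 FPKM, and KRT18, at 121.9 and 98.8 FPKM, were abundant in the libraries labelled LOVO, though lower than in HCT116. The keratin gene KRT19 stood at 14.9 and 4.85 FPKM in the libraries labelled LOVO, against 808.1 and 543.1 FPKM in HCT116. KRT20 had 1 and 2 reads in them, against 35 and 231 reads in HCT116. CDX1, VIL1, GPA33 and LGALS4 were low in HCT116 as well, at 0.169 FPKM or less. The libraries labelled LOVO thus held KRT8 and KRT18 but far less KRT19 than HCT116 and little or no KRT20, EPCAM, CDH1 and CDX2. The name LOVO below means the label only. The 6 markers of immune cells summed to between 0.250 and 2.09 FPKM in the 4 libraries.

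Of the 49 members, 45 reached a mean of at least 1 FPKM over the 4 libraries and were compared with the 14429 genes that passed the same filter. PSMA6, PSMD9, PSMA8 and PSMB11 did not pass it. PSMB8, PSMB10 and PSMA2 were under 1 FPKM in both HCT116 libraries and passed through their level in LOVO alone, so their presence among the 45 and among the members higher in LOVO depended on that line. Differences are given as log2(FPKM + 1) of the first library minus the second, a scale on which changes of weakly expressed genes appear too small. Brackets hold the 95% exact counting interval of the log2 ratio of the FPKM themselves, without the added 1. The intervals cover counting error only, and reads without molecular identifiers are not independent molecules.

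The subunits differed widely in level. The median over the 49 members was 20.7 FPKM in adherent HCT116 cells, 16.7 FPKM in HCT116 spheroids, 31.1 FPKM in adherent LOVO cells and 18.6 FPKM in LOVO spheroids. PSMB3, a structural beta subunit, was the highest member in both HCT116 libraries, at 116.7 and 86.8 FPKM. PSMA7, an alpha subunit, was the highest in both LOVO libraries, at 180.4 and 83.9 FPKM. At the other end stood PSMA8, the alpha subunit of the testis, with 1, 3, 0 and 0 reads in the 4 libraries. PSMB11, the catalytic subunit of the thymus, had 1 read in LOVO spheroids and 0 in the other libraries. Both were at or under the floor of 3 reads, and no difference in them was detectable at this depth.

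**Figure D1:**
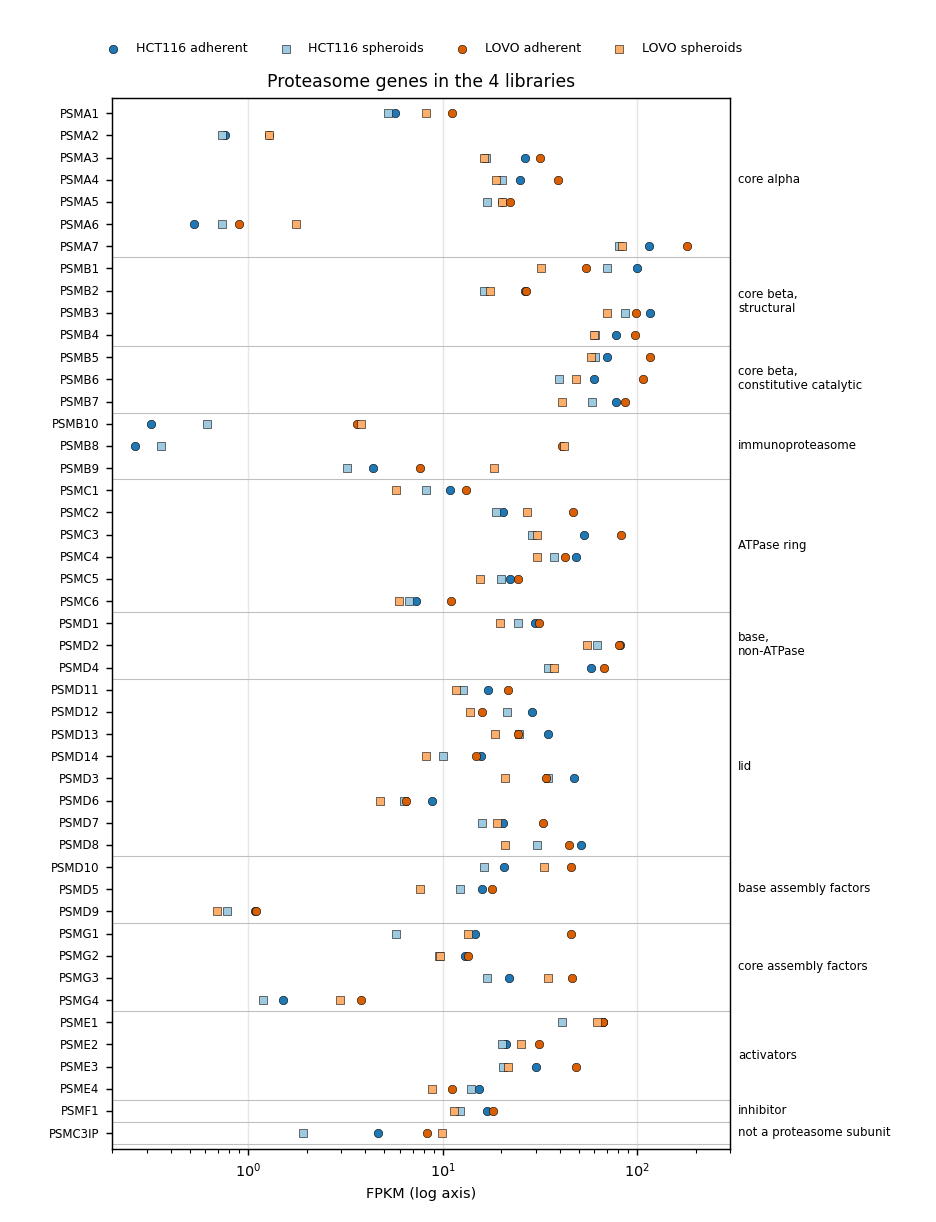
FPKM on a log scale of the members in the 4 libraries, grouped by their role in the proteasome, each point 1 library. PSMA8 and PSMB11 are left out. Most members lie between about 5 and 180 FPKM in every library, while PSMB8 is under 1 FPKM in both HCT116 libraries and near 42 FPKM in both LOVO libraries.

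In HCT116, nearly all proteasome genes were lower in spheroids than in adherent cells, most of them by a moderate amount. Lower values were found for 43 of the 45 members, against 53.4% of all genes compared, and the exceptions were PSMB8 and PSMB10. The median log2 difference of the members was -0.39, against -0.03 for all genes, which is a median change of -25.1% without the added 1. The counting interval lay below 0 for 38 of the 45 members, against 35% of all genes. It included 0 for PSMA1, PSMA2, PSMB8, PSMB10, PSMC2, PSMC6 and PSME2. A difference below -1 on the log2 scale was found for 1 of the 45 members, PSMG1, against 3.33% of all genes. No member was higher by more than 1, against 2.19% of all genes.

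LOVO spheroids showed the same direction, with larger differences in the deposited scaling. Lower values than in adherent LOVO cells were found for 41 of the 45 members, against 53.5% of all genes. The exceptions were PSMB8, PSMB9, PSMB10 and PSMC3IP, and PSMA2, with 1.29 FPKM in both libraries, was counted among the 41 with a log2 difference of -0.00. The median log2 difference of the members was -0.62, against -0.06 for all genes, or a median change of -36.9% without the added 1. The interval lay below 0 for 40 of the 45 members, against 42% of all genes. The 10 members below -1 were PSMA4, PSMA7, PSMB6, PSMB7, PSMC1, PSMC3, PSMD5, PSMD8, PSME3 and PSMG1, a share to be read against 7.85% of all genes. PSMB9 was the 1 member above 1, against 8.57% of all genes. The number below -1 and the size of the difference depended on the scaling between libraries. Rescaling to TPM (values that sum to the same total in every library) moved the median of all genes by 0.15. With TPM, 2 of the 45 members were below -1, and 37 were lower, against 43.5% of all genes. With a trimmed-mean scaling (TMM) 2 were below -1, and 38 were lower, against 47.1% of all genes. The share of all genes below -1 was not counted with either scaling, so the number of members below -1 has no background there. The medians of the members in HCT116 and LOVO were -0.39 and -0.45 with TPM, and -0.35 and -0.49 with TMM.

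Both lines taken side by side, 41 of the 45 members were lower in spheroids in HCT116 and in LOVO, or 91.1%, against 35.1% of the 14429 genes. For 36 of the 45, or 80%, the counting interval lay below 0 in both lines, against 22.6% of all genes. The LOVO difference was further down than the HCT116 difference, whatever the sign, in 36 of 45 members, or 80%, against 52.2% of all genes. The 36 include PSMB8 and PSMB10, which were higher in spheroids of both lines, with intervals that included 0. With TPM the LOVO difference was further down in 28 of 45, against 41.7% of all genes, and with TMM in 31 of 45, against 47.3%. Across the 45 members, the differences in both lines had a Pearson correlation of 0.41 and a Spearman correlation of 0.40. This is a description over genes of the same complex, which are not independent replicates, and each line contributed its own pair of libraries.

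**Figure D2:**
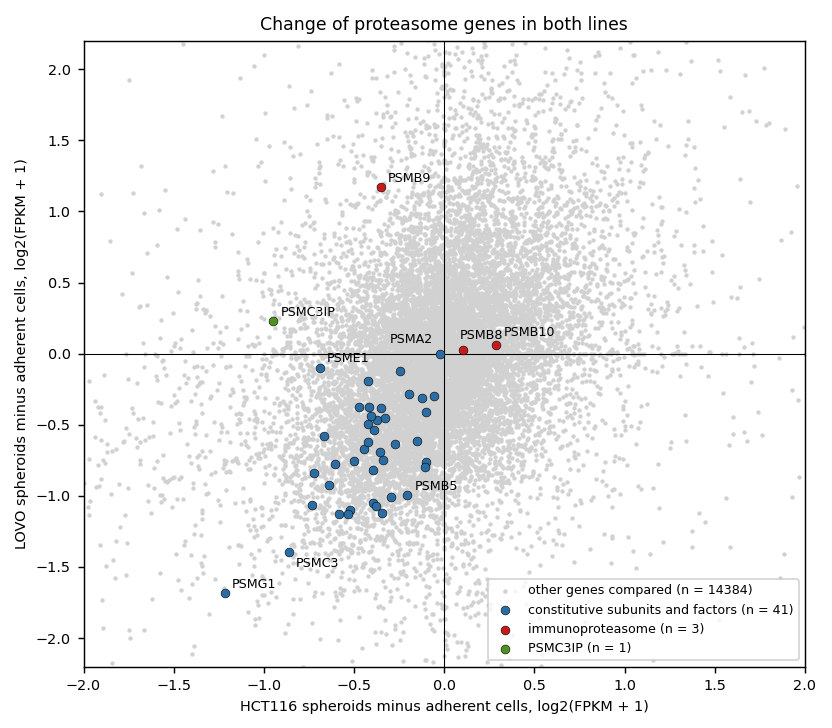
Log2(FPKM + 1) of spheroids minus adherent cells in LOVO (vertical) against HCT116 (horizontal), for 45 members by class and, in grey, for the other genes compared, of which 384 lie outside the axes. The members gather at the lower left, and PSMB9 stands apart with -0.35 in HCT116 and 1.17 in LOVO.

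The alpha subunits form the outer rings of the barrel and its gate. All 6 that passed the filter were lower in spheroids of both lines, with median log2 differences of -0.27 in HCT116 and -0.67 in LOVO. PSMA6, which did not pass it, was higher in spheroids of both lines, by 0.18 [-0.01, 0.96] in HCT116 and 0.55 [0.65, 1.33] in LOVO. Its LOVO interval lies past the difference because it omits the added 1. PSMA7 stood at 115.4 FPKM in adherent HCT116 cells and 80.2 FPKM in HCT116 spheroids, and at 180.4 and 83.9 FPKM in the LOVO libraries. Its log2 difference was -0.52 [-0.60, -0.45] in HCT116 and -1.10 [-1.17, -1.04] in LOVO. PSMA4 stood at 24.9, 20.1, 38.9 and 18.8 FPKM in the same order, with log2 differences of -0.30 [-0.39, -0.24] and -1.01 [-1.11, -0.98]. In both genes the adherent LOVO library was the highest of the 4, and the 2 spheroid libraries were close to each other. PSMA6 stood at only 0.528, 0.732, 0.891 and 1.76 FPKM and PSMA2 at between 0.736 and 1.29 FPKM, although the alpha ring holds every alpha subunit once. PSMA6 shares 919 exonic bases and PSMA2 shares 781 with another protein-coding gene annotated on the same strand, and PSMA1, at 5.25 to 11.2 FPKM, shares 814. The part of this overlap in their low counts was not tested.

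The beta subunits PSMB1 to PSMB4 complete the inner rings without a cutting site. All were lower in spheroids, with median log2 differences of -0.46 in HCT116 and -0.63 in LOVO. PSMB1 stood at 99.1 FPKM in adherent HCT116 cells, 69.9 FPKM in HCT116 spheroids, 54.6 FPKM in adherent LOVO cells and 32.0 FPKM in LOVO spheroids. It was the member lowest in LOVO relative to HCT116, in adherent cells with a log2 difference of -0.85 and in spheroids with -1.10.

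The constitutive cutting subunits had some of the larger differences in LOVO. PSMB5, which cuts after hydrophobic residues, stood at 70.2 and 60.8 FPKM in adherent and spheroid HCT116 cells and at 116.7 and 58.0 FPKM in LOVO. PSMB6, which cuts after acidic residues, stood at 59.9, 39.6, 106.8 and 48.4 FPKM in the same order. PSMB7, which cuts after basic residues, stood at 77.4, 58.7, 86.4 and 41.2 FPKM. In each of these genes adherent LOVO cells had the highest value of the 4 libraries. The log2 differences of PSMB5, PSMB6 and PSMB7 were -0.21, -0.58 and -0.39 in HCT116 and -0.997, -1.13 and -1.05 in LOVO. The median over this group was -1.05 in LOVO, the lowest median among the role groups with more than 1 member.

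The ATPase ring and the rest of the base were lower as well. All 6 ATPases were lower in spheroids of both lines, with medians of -0.26 and -0.78, but the interval lay below 0 in 4 of the 6 in HCT116 and in 6 of 6 in LOVO. PSMC3 had the lowest differences among them. It stood at 53.2 FPKM in adherent HCT116 cells, 28.8 FPKM in HCT116 spheroids, 82.3 FPKM in adherent LOVO cells and 30.7 FPKM in LOVO spheroids, with log2 differences of -0.86 [-0.99, -0.78] and -1.40 [-1.52, -1.33]. PSMC2 stood at 20.3 and 18.9 FPKM in HCT116, with an interval that included 0, and at 46.6 and 27.1 FPKM in LOVO, a log2 difference of -0.76. PSMC1 went from 10.9 to 8.20 FPKM in HCT116 and from 13.2 to 5.75 FPKM in LOVO. PSMC1 shares 4671 exonic bases with NRDE2 on the opposite strand, and whether the counting used strand is not given in the sources used here. Of the base subunits without ATPase activity, PSMD4, a receptor for ubiquitin chains, stood at 57.6, 34.6, 67.3 and 37.3 FPKM, with log2 differences of -0.72 and -0.84.

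All 8 lid subunits were lower in both lines and had intervals below 0 in both, with medians of -0.43 and -0.71. PSMD8, a lid subunit, stood at 51.4, 30.5, 44.5 and 20.8 FPKM, with log2 differences of -0.73 and -1.06. PSMD3 stood at 47.5, 34.6, 33.9 and 20.9 FPKM. PSMD13 and PSMD12 were 2 of the 9 members whose difference was not further down in LOVO, with -0.47 and -0.42 in HCT116 against -0.38 and -0.19 in LOVO. The LOVO difference of PSMD12 was 0.00 after rescaling to TPM.

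The assembly factors held the member that differed most. PSMG1, which pairs with PSMG2 to guide the building of the alpha ring, stood at 14.6 FPKM in adherent HCT116 cells, 5.73 FPKM in HCT116 spheroids, 45.7 FPKM in adherent LOVO cells and 13.5 FPKM in LOVO spheroids. Its counts were 750, 242, 2060 and 684 reads, and its exons overlap no other annotated gene. The log2 difference was -1.22 [-1.57, -1.14] in HCT116 and -1.68 [-1.88, -1.63] in LOVO, the lowest of all members in both lines. Its partner PSMG2 stood at 13.0, 9.52, 13.6 and 9.73 FPKM, with log2 differences of -0.41 and -0.44. PSMG3, of the second pair of core assembly factors, stood at 21.9, 16.9, 45.9 and 34.9 FPKM, with differences of -0.35 and -0.39, and PSMG4 at 1.52, 1.19, 3.81 and 2.95 FPKM, with -0.20 and -0.29. In the pair PSMG1 and PSMG2, the percent change in spheroids was thus -60.9% in HCT116 and -70.4% in LOVO for PSMG1, and -26.5% and -28.2% for PSMG2. Of the factors that assemble the base, PSMD5 stood at 15.9, 12.3, 17.8 and 7.67 FPKM, with differences of -0.35 and -1.12. PSMD10, also known as gankyrin, stood at 20.7, 16.3, 45.6 and 33.0 FPKM, with differences of -0.33 and -0.45.

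The activators differed among themselves. PSME1, of the interferon-inducible activator, stood at 66.8 FPKM in adherent HCT116 cells and 41.0 FPKM in HCT116 spheroids, a log2 difference of -0.69 [-0.80, -0.60], but at 66.4 and 61.9 FPKM in LOVO, a difference of -0.10 [-0.19, -0.01]. The LOVO difference changed sign, to 0.10, after rescaling to TPM and to 0.04 with TMM. PSME2, its partner in the same ring, stood at 21.0, 20.2, 31.2 and 25.2 FPKM, with differences of -0.06 [-0.17, 0.05] and -0.29 [-0.40, -0.21]. The larger difference was thus in PSME1 in HCT116 and in PSME2 in LOVO. PSME3, the nuclear activator, stood at 30.1, 20.5, 48.7 and 21.7 FPKM, with -0.53 and -1.13. PSME4, an activator that acts on histones, stood at 15.3, 13.9, 11.2 and 8.81 FPKM, with -0.12 and -0.32. PSMF1, the inhibitor, stood at 16.9, 12.3, 18.1 and 11.4 FPKM, with -0.42 and -0.62.

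PSMC3IP shares its name with PSMC3 but encodes a cofactor of recombination in meiosis. It stood at 4.63 FPKM in adherent HCT116 cells, 1.92 FPKM in HCT116 spheroids, 8.30 FPKM in adherent LOVO cells and 9.89 FPKM in LOVO spheroids. Its log2 difference was -0.95 [-1.65, -0.91] in HCT116 and 0.23 [0.06, 0.45] in LOVO. The interval lies mostly past the difference because it omits the added 1. Its exons share 770 bases with MLX on the opposite strand.

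The immunoproteasome subunits differed from the constitutive ones in LOVO, where none of the 3 was lower in spheroids, and their levels set the lines apart. In HCT116, PSMB9 was lower in spheroids like most members, and PSMB8 and PSMB10 had under 20 reads. On GRCh38, PSMB8 (minus strand, chromosome 6, 32840717 to 32844703) and PSMB9 (plus strand, 32844136 to 32859585) are neighbours in the MHC class II region. PSMB10 is found on chromosome 16 (minus strand, 67934502 to 67937087). PSMB8 stood at 0.262 FPKM in adherent HCT116 cells, 0.357 FPKM in HCT116 spheroids, 41.2 FPKM in adherent LOVO cells and 41.9 FPKM in LOVO spheroids, from 16, 18, 2214 and 2526 reads. PSMB9 stood at 4.38, 3.22, 7.64 and 18.4 FPKM in the same order, from 274, 166, 421 and 1140 reads. PSMB10 stood at 0.318, 0.610, 3.61 and 3.81 FPKM, from 12, 19, 120 and 142 reads. The 3 genes had different patterns: PSMB8 and PSMB10 were higher in LOVO than in HCT116 whatever the growth form, and PSMB9 was highest in LOVO spheroids. PSMB10 was the lowest of the 3 in both LOVO libraries.

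Between spheroids and adherent cells, PSMB9 was the immunoproteasome gene that differed most. Its log2 difference was -0.35 [-0.73, -0.16] in HCT116 and 1.17 [1.11, 1.44] in LOVO. PSMB8 differed by 0.11 [-0.61, 1.52] and 0.02 [-0.06, 0.11], and PSMB10 by 0.29 [-0.18, 2.12] and 0.06 [-0.28, 0.44], so that neither differed beyond its counting interval in either line. Between the lines, PSMB8 was 157.3 times higher in adherent LOVO cells than in adherent HCT116 cells and 117.2 times higher in LOVO spheroids than in HCT116 spheroids. With 16 and 18 reads in HCT116, the intervals of these log2 ratios were wide, at [6.59, 8.11] and [6.21, 7.63]. PSMB10 was 11.4 and 6.24 times higher, and PSMB9 1.75 and 5.73 times higher. Exons of PSMB8 share 618 bases with its antisense gene PSMB8-AS1 and 139 bases with PSMB9, and PSMB10 shares 644 bases with a longer gene on its own strand. PSMB8-AS1 stood at 0.151, 0.275, 1.80 and 2.90 FPKM, in the direction of PSMB8 but far below it. The part of these overlaps was not tested. Of the markers of immune cells, CD3E and PTPRC had 0 to 2 reads in every library, but CD14, a gene of monocytes, went from 5 reads (0.148 FPKM) in adherent to 68 reads (1.79 FPKM) in spheroid LOVO cells. PECAM1, a gene of endothelium, went from 5 reads (0.0359 FPKM) to 992 reads (6.35 FPKM) between the same libraries. Both were higher in the library in which PSMB9 was highest, and their part in that difference was not tested. In bulk RNA, a change in the share of cells that express a gene and a change in its RNA per cell cannot be told apart.

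Inside a library, the ratio of each immunoproteasome subunit to the subunit whose place it takes does not depend on scaling between libraries. The log2 ratio of PSMB8 to PSMB5 was -8.07 [-8.88, -7.36] in adherent and -7.41 [-8.17, -6.74] in spheroid HCT116 cells, and it was -1.503 [-1.58, -1.43] in adherent and -0.47 [-0.55, -0.38] in spheroid LOVO cells. The ratio in LOVO spheroids thus exceeded that in adherent LOVO cells by 1.03, while PSMB8 itself stood at 41.2 and 41.9 FPKM and PSMB5 was lower in the spheroids. That ratio depends on the lengths used: it was 0.23 in LOVO spheroids with coding length and 0.29 with reads not divided by length. The log2 ratio of PSMB9 to PSMB6 was -3.77, -3.62, -3.81 and -1.39 in the same order. Here LOVO spheroids stood 2.41 above adherent LOVO cells, with a higher PSMB9 and a lower PSMB6, and the other libraries lay between -3.81 and -3.62. The log2 ratio of PSMB10 to PSMB7 was -7.93, -6.59, -4.58 and -3.43.

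As a share of paired FPKM, PSMB8 made up 0.371% and 0.585% of the sum of PSMB8 and PSMB5 in adherent and spheroid HCT116 cells, and 26.1% and 41.9% of it in adherent and spheroid LOVO cells. PSMB9 made up 6.81%, 7.51%, 6.68% and 27.6% of its sum with PSMB6. PSMB10 made up 0.409%, 1.03%, 4.01% and 8.46% of its sum with PSMB7. Over the 3 pairs, the immunoproteasome subunits summed to 4.96 FPKM in adherent HCT116 cells, 4.18 FPKM in HCT116 spheroids, 52.4 FPKM in adherent LOVO cells and 64.1 FPKM in LOVO spheroids. The constitutive subunits summed to 207.6, 159.1, 310.0 and 147.6 FPKM. The constitutive subunits were therefore more abundant in summed FPKM in every library, 41.9 times in adherent HCT116 cells and 2.30 times in LOVO spheroids. These shares and sums depend on the gene lengths behind the FPKM. In LOVO spheroids, reads not divided by length summed to 3808 for the immunoproteasome and 4950 for the constitutive subunits.

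**Figure D3:**
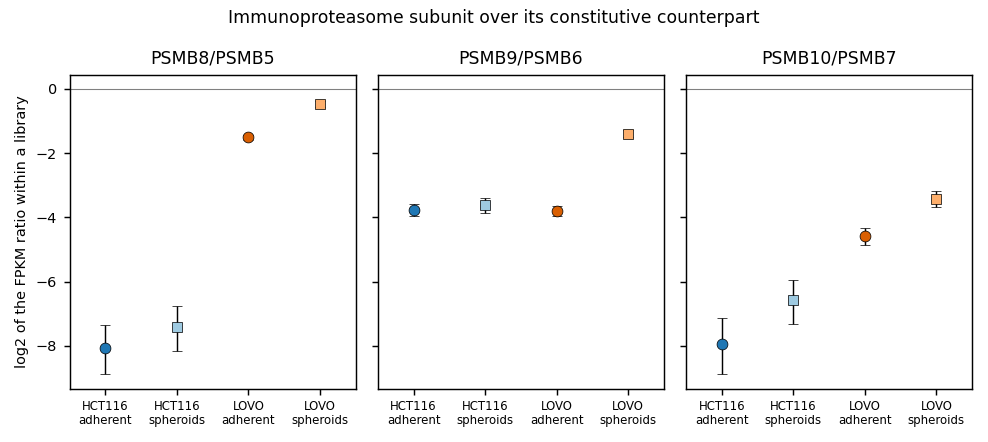
Log2 ratio of the FPKM of each immunoproteasome subunit to its constitutive counterpart in the 4 libraries, with 95% exact counting intervals. A value of 0 means equal FPKM, and all 12 ratios lie below 0, from -8.07 for PSMB8 in adherent HCT116 cells to -0.47 for PSMB8 in LOVO spheroids.

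The promoters of the interferon-inducible members are shown because they carry a run of letters that most other members lack. RefSeq promoter windows of GRCh38.p14, from 250 bases before to 50 bases after the start, were matched for 43 of the 49 members, with 53 windows in all. PSMA7, PSMB1, PSMB6, PSMB7, PSMD4 and PSMG3 were not matched. The letters GAAA, any 2 bases and GAAA, which resemble the element bound by interferon regulatory factors, were searched on both strands. They were found in 7 of the 53 windows, or 13.2%, against 3.57% of all 35116 windows of the same length. The 7 genes were PSMB8, PSMB10, PSME1, PSME2, PSMA4, PSMB4 and PSMG4. The window of PSMB9 held no match, but the start of TAP1, which encodes a peptide transporter and lies head to head with PSMB9, held 2 overlapping ones. The stretches lie at chr6:32844028-32844076 (minus strand) for PSMB8, chr16:67936837-67936896 (minus) for PSMB10, chr14:24136174-24136213 (plus) for PSME1, chr14:24146604-24146663 (minus) for PSME2 and chr6:32853798-32853863 (minus) for TAP1. Each is written 5′ to 3′ along the strand of its gene, and capitals mark the match, read as TTTC on the other strand.
PSMB8: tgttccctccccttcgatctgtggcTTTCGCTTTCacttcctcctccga
PSMB10: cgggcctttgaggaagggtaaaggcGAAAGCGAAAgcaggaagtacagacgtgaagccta
PSME1: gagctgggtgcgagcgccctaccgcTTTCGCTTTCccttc
PSME2: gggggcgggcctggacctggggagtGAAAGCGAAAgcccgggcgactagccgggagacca
TAP1: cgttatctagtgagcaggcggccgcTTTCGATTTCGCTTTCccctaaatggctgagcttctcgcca
The matches of PSMB8, PSMB10, PSME1 and PSME2 are the same letters, in 2 of them on the opposite strand. Their levels were not alike: PSMB8 and PSMB10 were 6.24 to 157.3 times higher in LOVO than in HCT116, where they had 12 to 19 reads. PSME1 stood at 66.8 and 66.4 FPKM in the adherent libraries. Letters in a window are a description and not a binding site. TGACNNNGC, the core of the element that NFE2L1 binds, was found on either strand in 15 of the 53 windows, or 28.3%, against 13.35% of all windows. The 15 genes were PSMA4, PSMB3, PSMB9, PSMC4, PSMC5, PSMD1, PSMD3, PSMD5, PSMD9, PSMD12, PSME1, PSME2, PSME4, PSMG1 and PSMG2. CCAAT was found in 22 of the 53, or 41.5%, against 34.6%.

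Between the lines, adherent LOVO cells had higher values than adherent HCT116 cells for 33 of the 45 members, against 53% of all genes, with a median log2 difference of 0.25 against 0.07. The 6 members above 1 were PSMB8, PSMB10, PSMC2, PSMD10, PSMG1 and PSMG3, to be read against 17.4% of all genes. No member was below -1, against 16.4% of all genes. In spheroids 22 of the 45 members were higher in LOVO than in HCT116, against 51.6% of all genes, with a median of -0.00 against 0.04. After rescaling to TPM, 30 of the 45 members and 8657 of the 14429 genes were higher, with a median of 0.26 over all genes. PSMB8, PSMB9, PSMB10, PSMC3IP, PSMG1 and PSMG3 were above 1, against 17.7% of all genes, and PSMB1 was below -1, against 15%. The comparisons of spheroids with adherent cells and of LOVO with HCT116 use the same 4 libraries. With the deposited scaling, the median of the ATPase ring was 21.2 FPKM in adherent HCT116 cells and 33.5 FPKM in adherent LOVO cells, against 19.4 and 21.3 FPKM in the spheroids.

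Genes that work with the proteasome were examined from lists, whose counts and medians are to be read against all genes compared. Of these, 53.4% were lower in HCT116 spheroids and 53.5% in LOVO spheroids, with median log2 differences of -0.03 and -0.06. Of 5 subunits and assembly factors outside the name pattern, all were lower in HCT116 spheroids and 4 in LOVO spheroids, with median log2 differences of -0.31 in both. POMP, the maturation factor of the core particle, stood at 76.96, 61.6, 51.8 and 32.2 FPKM. ADRM1, a ubiquitin receptor of the base, stood at 59.8, 44.2, 44.9 and 36.1 FPKM, and SEM1, a small lid subunit, at 5.51, 4.26, 5.52 and 4.15 FPKM. PAAF1, which binds the ATPases during assembly, was the exception in LOVO, with 2.95 FPKM in adherent cells and 3.21 FPKM in spheroids. Of 13 proteasome-bound enzymes and shuttle proteins found in the table, of 14 listed, 12 were lower in spheroids of each line, with medians of -0.36 and -0.73. Of these, UBQLN2, a shuttle protein gene, was higher in LOVO than in HCT116 by 1.86 in adherent cells and 1.71 in spheroids, and UCHL5, a deubiquitinase of the base, by 1.18 and 0.59. Of the 6 genes of the NFE2L1 route, 6 were lower in HCT116 spheroids and 5 in LOVO spheroids. NFE2L1 stood at 50.2, 40.5, 59.6 and 36.7 FPKM, and its relative NFE2L2, the regulator of the oxidative stress response, at 18.8, 11.8, 49.6 and 19.2 FPKM, a log2 difference of -0.63 in HCT116 and -1.32 in LOVO.

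The genes of antigen processing went another way in LOVO. Of 25 listed genes, 24 passed the filter. In HCT116, 12 were lower and 12 higher in spheroids, where 53.4% of all genes were lower, with a median log2 difference of 0.00. CALR, a chaperone of the endoplasmic reticulum that helps load MHC class I molecules, was the 1 gene past 1, with 432.6 FPKM in adherent cells and 151.6 FPKM in spheroids. In LOVO, 4 were lower and 20 higher, with a median of 0.70 against -0.06 for all genes, where 53.5% of all genes were lower. Above 1 were 7 of the 24, against 8.57% of all genes, and below -1 was 1, JAK1, a kinase of the interferon receptors, against 7.85%. TAP1 stood at 12.2 FPKM in adherent HCT116 cells, 12.6 FPKM in HCT116 spheroids, 33.1 FPKM in adherent LOVO cells and 72.0 FPKM in LOVO spheroids. TAPBP, which tethers TAP1 to MHC class I molecules, stood at 13.5, 13.1, 22.1 and 74.6 FPKM. B2M, the light chain of MHC class I molecules, stood at 62.2, 65.8, 426.7 and 771.5 FPKM. In all 3 the HCT116 libraries were close to each other and LOVO spheroids were above adherent LOVO cells. TAP2, also a peptide transporter gene, was among the 4 that were lower in LOVO spheroids. It stood at 4.71, 3.20, 8.92 and 7.19 FPKM, with a log2 difference of -0.28 [-0.44, -0.18] in LOVO. The heavy chain gene HLA-F stood at 3.27 and 25.1 FPKM in adherent and spheroid LOVO cells, and HLA-B and HLA-C differed by 1.12 and 1.11 on the log2 scale. These genes resemble each other closely and are highly polymorphic, so the split of reads among them is uncertain. The remaining genes above 1 in LOVO were IRF1 and TAPBPL. Between the lines, the chaperone gene CANX was higher in LOVO by 1.27 in adherent cells and 1.21 in spheroids, and ERAP1, which trims peptides, by 0.64 and 1.03. HLA-E differed between the lines by 0.41 in adherent cells and 1.76 in spheroids, and PDIA3, of the peptide loading complex, by -0.03 and 1.32. Among the regulators, NLRC5, which drives MHC class I genes, stood at 0.931, 1.51, 5.96 and 6.38 FPKM and was higher in LOVO in either growth form. IRF1, which is known to act on the promoter shared by TAP1 and PSMB9, stood at 2.16, 1.40, 1.21 and 3.48 FPKM, with a log2 difference of -0.40 in HCT116 and 1.02 in LOVO. It shares 1716 exonic bases with C5orf56 on the opposite strand. C5orf56 had 41 and 101 reads in adherent and spheroid LOVO cells, against 169 and 546 for IRF1. The part of this overlap in the IRF1 counts, and the part of IRF1 in the PSMB9 difference, were not tested.

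**Figure D4:**
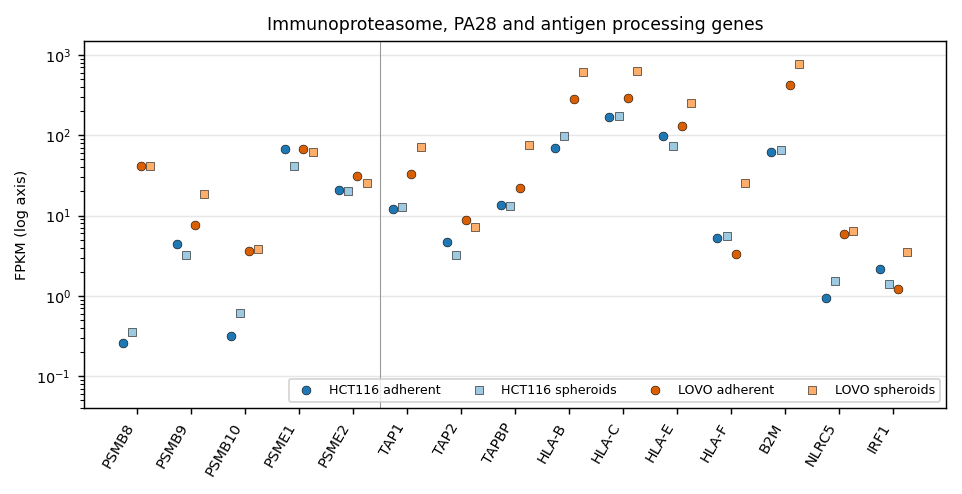
FPKM on a log scale of genes of antigen processing and their regulators, beside the immunoproteasome genes, in the 4 libraries, each point 1 library. TAP1, TAPBP, B2M and PSMB9 are highest in LOVO spheroids, while PSMB8 and NLRC5 are about equal in both LOVO libraries and TAP2 is highest in adherent LOVO cells.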

How the data were processed

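The authors deposited 1 FPKM value per gene for each of 4 RNA-seq libraries, 1 per condition. The kit was a SMARTER mRNA-Seq kit. The aligner and the counting program are not given in the sources used here. The submitters' processing notes name a mouse genome build, but all 58735 gene identifiers and coordinates were those of GENCODE 29 for the human genome, and coordinates are given on GRCh38.

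FPKM times gene length gave whole multiples of a step in each library for 100% of values (tolerance 0.01), which recovered the reads. The library sizes behind the FPKM were 0.998 and 1.09 (HCT116, adherent and spheroid) and 0.907 and 1.05 (LOVO) times the reads on genes. Genes with a mean of at least 1 FPKM were compared on the log2(FPKM + 1) scale, with 1 as the limit for a large difference. With 1 library per condition no test was made and no p-value is given, since no spread between replicates could be estimated. Counting intervals were exact (Clopper-Pearson, 95%). The procedure was tested on simulated data. Python 3.11.15, pandas 2.3.3 and scipy 1.17.1 were used.

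The members and the lists of roles, partner genes and markers were chosen with earlier results of these data known. The genes named were the catalytic pairs, the activators, the inhibitor, PSMC3IP, the members past 1 or among the 5 highest and 5 lowest in a comparison, the highest and lowest member of each role, the partner genes past 1 and a few fixed regulators. Some further genes, such as PSMA1, PSMA6, PSMG2, PSMG4, TAP2, SYVN1 and ZFAND2A, were named after their values were seen. Alternatives were other pseudocounts, filters, scalings, lengths and thresholds, and leaving out members. Of the genes under this rule, 2 are not reported here.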

Additional observations from a re-analysis of the deposited data

Results flagged for a closer look

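Differences in opposite directions in the lines, with counting intervals on either side of 0, were found for 6 of the members and partner genes named. These genes were named in part for large differences, and the share over all genes was not counted. Listed genes outside that choice also met the rule, such as SYVN1 of the NFE2L1 route (-0.53 and 0.79) and ZFAND2A of the proteasome-bound proteins (-0.63 and 0.29). The difference between the lines was not tested. PSMB9 differed between spheroids and adherent cells by -0.35 in HCT116 and 1.17 in LOVO on the log2(FPKM + 1) scale. PSMC3IP differed by -0.95 and 0.23, CALR by -1.51 and 0.29, and HLA-E, a nonclassical MHC class I heavy chain, by -0.42 and 0.93. PDIA3, a disulfide isomerase of the peptide loading complex, differed by -0.74 and 0.60, and IRF1 by -0.40 and 1.02. CALR, HLA-E, PDIA3 and IRF1 are antigen processing genes, and PSMB9 was the 1 proteasome subunit among the 6.

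Rows that match the proteasome names without being protein-coding were outside the comparisons. There were 37 of them, and 5 had a mean of at least 1 FPKM. The antisense RNA PSMA3-AS1 reached 5.22 FPKM in adherent LOVO cells and PSMD6-AS2 reached 1.22 FPKM in adherent HCT116 cells. PSMB8-AS1 reached 2.90 FPKM in LOVO spheroids, from 114 reads, against 6 reads in adherent HCT116 cells. The pseudogenes PSMC1P1 and PSMA6P1 reached 1.99 FPKM in adherent LOVO cells and 1.34 FPKM in LOVO spheroids. Pseudogenes can take reads of their parent genes, and their part in the counts of PSMC1 and PSMA6 was not tested.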

How the results depend on the processing

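The median log2 difference of the members between spheroids and adherent cells stayed between -0.42 and -0.35 in HCT116 and between -0.80 and -0.45 in LOVO under the alternatives tried. In LOVO it was -0.45 with TPM, -0.49 with TMM-style scaling and -0.80 over the 23 members whose exons overlap no other gene. Among those 23 members, 23 were lower in each line, against 53.4% of all genes in HCT116 and 53.5% in LOVO. None was above 1 in LOVO spheroids (0, as PSMB9 was left out), against 8.57% of all genes. In adherent LOVO against HCT116 cells 16 were higher, against 53% of all genes, and 3 above 1, against 17.4%. In spheroids of LOVO against HCT116 9 were higher, against 51.6%, and 1 above 1, against 17.7%. Below -1 in HCT116 were 2 members with a pseudocount of 0.1 or 0.01 or with TPM, and below -1 in LOVO were 2 with TPM or TMM. With a limit of 2, 0 members were past it in either line, 0 were below it in LOVO against HCT116 spheroids, and in LOVO against HCT116 1 was above in adherent cells and 2 in spheroids. The shares of all genes past -1 with other pseudocounts or scalings, or past a limit of 2, were not counted, so these counts have no background. LOVO against HCT116 gave a median of 0.15 with TMM in adherent cells, and 0.23 with TPM in spheroids, where all genes shifted by 0.22 and 0 members were below -1.

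The median of the 3 log2 ratios of immunoproteasome to constitutive subunits was -7.93 and -6.59 in adherent and spheroid HCT116 cells and -3.81 and -1.39 in adherent and spheroid LOVO cells. With 1 added to each FPKM it was -5.82, -5.21 and -3.64 in the first 3, and for summed subunits -5.39, -5.25, -2.56 and -1.20. In LOVO it was -2.72 and -0.31 with reads not divided by length, and -2.59 and -0.18 with coding length, and PSMB8 to PSMB5 in LOVO spheroids turned to 0.29 and 0.23.

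Other signs that turned were the median of the immunoproteasome genes in HCT116 (-0.12 with a mean of at least 5 FPKM, which keeps PSMB8 and PSMB9), PSMD12 (0.0011 with TPM) and PSME1 (0.10 with TPM, 0.035 with TMM) in LOVO spheroids, PSMF1 (-0.0017 with TMM) in adherent LOVO against HCT116 cells, and JAK1 (0.11), NFE2L1 (0.093) and PSMA4 (0.14) in LOVO against HCT116 spheroids with TPM. No paired analysis was possible because each comparison lay within 1 line or 1 growth form and had 1 library per condition. A fit over both lines with the line as a block, which leaves 1 residual degree of freedom, was not run. Depth limits the values that rest on under 20 reads, as for PSMB8 and PSMB10 in HCT116.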
